A study of Mus musculus with 48 samples.

Results

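The genes described here encode matricellular proteins: the thrombospondins Thbs1, Thbs2, Thbs3 and Thbs4, tenascin C (Tnc), periostin (Postn), Sparc, osteopontin (Spp1) and the CCN proteins Ctgf and Cyr61. They are 10 of the 30743 gene rows of the deposited count table and were listed by name. The list was drawn up with the ACF response of these libraries already known, so that response is given as a description: calls in it are counted, and nothing is read from them. Tests of the members are those between nuclear and mitochondrial backgrounds, in libraries of set B, which had no ACF arm, and in the sham libraries of set A, which were also the reference of the ACF response.

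The libraries were made from mRNA of isolated mouse heart cells labelled as cardiomyocytes, with the right ventricle and atria removed, and each count is an estimate of the reads of 1 gene. The mice carried the nuclear and mitochondrial genomes of C57BL/6J (C57) or C3H/HeN (C3H), either unexchanged or reciprocally exchanged (mitochondrial-nuclear exchange, MNX), and all cells were taken 3 days after sham surgery or ACF. ACF is the surgery of a volume overload study, and the abbreviation commonly stands for aortocaval fistula. In set A, 24 libraries carried titles of 4 kinds, C57_wt, C3H_wt, C57_MNX and C3H_MNX, each with 3 sham and 3 ACF libraries. In set B, 24 libraries labelled sham fell into C57_WT (C57n:C57mt), C57n-C3Hmt, C3H_WT (C3Hn:C3Hmt) and C3Hn-C57mt, with 6 libraries each, where n and mt name the source of the nucleus and of the mitochondria. The labels give no age and do not say whether each library stands for its own mouse, so p-values measure only the spread between these libraries.

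Matricellular proteins are secreted into the extracellular matrix, where they bind cell surface receptors, growth factors and structural fibres without bearing load themselves. In the adult heart they are known for low levels at rest and for induction by injury, stretch or overload. Much of that induction is known from fibroblasts, vascular cells and leukocytes, while cardiomyocytes are known to make CCN proteins and some thrombospondins.

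The stretches before the transcription start of 3 members are shown because Thbs4 had the clearest difference between nuclear backgrounds, Tnc one of the largest ACF differences, and Cyr61 no call in either comparison. They are the 250 bases before a start listed by RefSeq for GRCm38.p6, all on the minus strand, read 5′ to 3′. Capitals mark CATTCC, the core bound by TEAD, the DNA-binding partner of YAP, and TATAAA, the TATA box core, each searched on both strands.
Thbs4, chr13:92794819-92795068: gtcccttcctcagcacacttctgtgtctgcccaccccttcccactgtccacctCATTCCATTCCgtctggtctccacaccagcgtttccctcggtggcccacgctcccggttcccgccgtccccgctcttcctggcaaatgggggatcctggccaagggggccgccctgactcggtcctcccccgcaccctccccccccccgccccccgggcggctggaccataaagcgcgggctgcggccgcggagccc
Tnc, chr4:64046937-64047186: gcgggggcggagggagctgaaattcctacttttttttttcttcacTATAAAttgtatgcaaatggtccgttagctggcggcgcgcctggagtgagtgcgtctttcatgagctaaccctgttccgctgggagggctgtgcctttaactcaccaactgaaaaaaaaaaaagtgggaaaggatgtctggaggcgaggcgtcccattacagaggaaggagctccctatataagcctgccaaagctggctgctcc
Cyr61, listed there as Ccn1, chr3:145649986-145650235: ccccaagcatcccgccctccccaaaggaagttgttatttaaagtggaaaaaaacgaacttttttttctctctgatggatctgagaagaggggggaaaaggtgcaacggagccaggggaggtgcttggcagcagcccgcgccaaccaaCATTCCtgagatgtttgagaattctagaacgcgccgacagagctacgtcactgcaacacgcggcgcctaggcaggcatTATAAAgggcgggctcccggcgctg
The Thbs4 window held overlapping copies of CATTCC that begin 197 and 192 bases before the start and share a single base. The Cyr61 window held CATTCC at 103 and TATAAA at 25 bases before its start, and the Tnc window held TATAAA at 205 bases before the second of 2 listed starts. Of 32851 windows of this length in the same table, 12.6% held CATTCC and 12.4% held TATAAA on either strand. The AP-1 site TGANTCA was in 6.75% of windows and in none of those of the 8 members that the table lists. Only these exact letters were searched, so variants of the TATA box, such as tatataa near the end of the Tnc window, are not marked. A match is a description of the letters and not a bound site.

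Libraries of set A held between 15.89 and 20.77 M counts (M, mega) and those of set B between 15.97 and 26.09 M. The genotype tag of the 12 exchanged set A libraries names the other nucleus than their titles do. On a scale of 36 nuclear background genes, chosen on the unexchanged groups of set B and running from 0 at C57 to 1 at C3H, C3H_MNX libraries scored 0.84 to 1 and C57_MNX libraries -0.016 to 0.0346. Groups of set A are therefore called by their titles, and which mitochondria the MNX titles stand for is doubtful. Library 489, an ACF library of C57_wt, stood apart from the other 23 libraries of set A. Its summed CPM (counts per M counts of the library, scaled by TMM) was 10300 for 10 cardiomyocyte markers against 48800 to 84300 elsewhere, 81500 for 6 erythrocyte markers against 5.1 to 353, and 3430 for 12 fibroblast markers against 416 to 2220. Its platelet markers summed to 429 against 0.702 to 70.4 CPM and its macrophage markers to 453 against 56.1 to 241 CPM. The mean ACF effect of each member and its effect within C57_wt are therefore given with and without it.

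**Figure D1:**
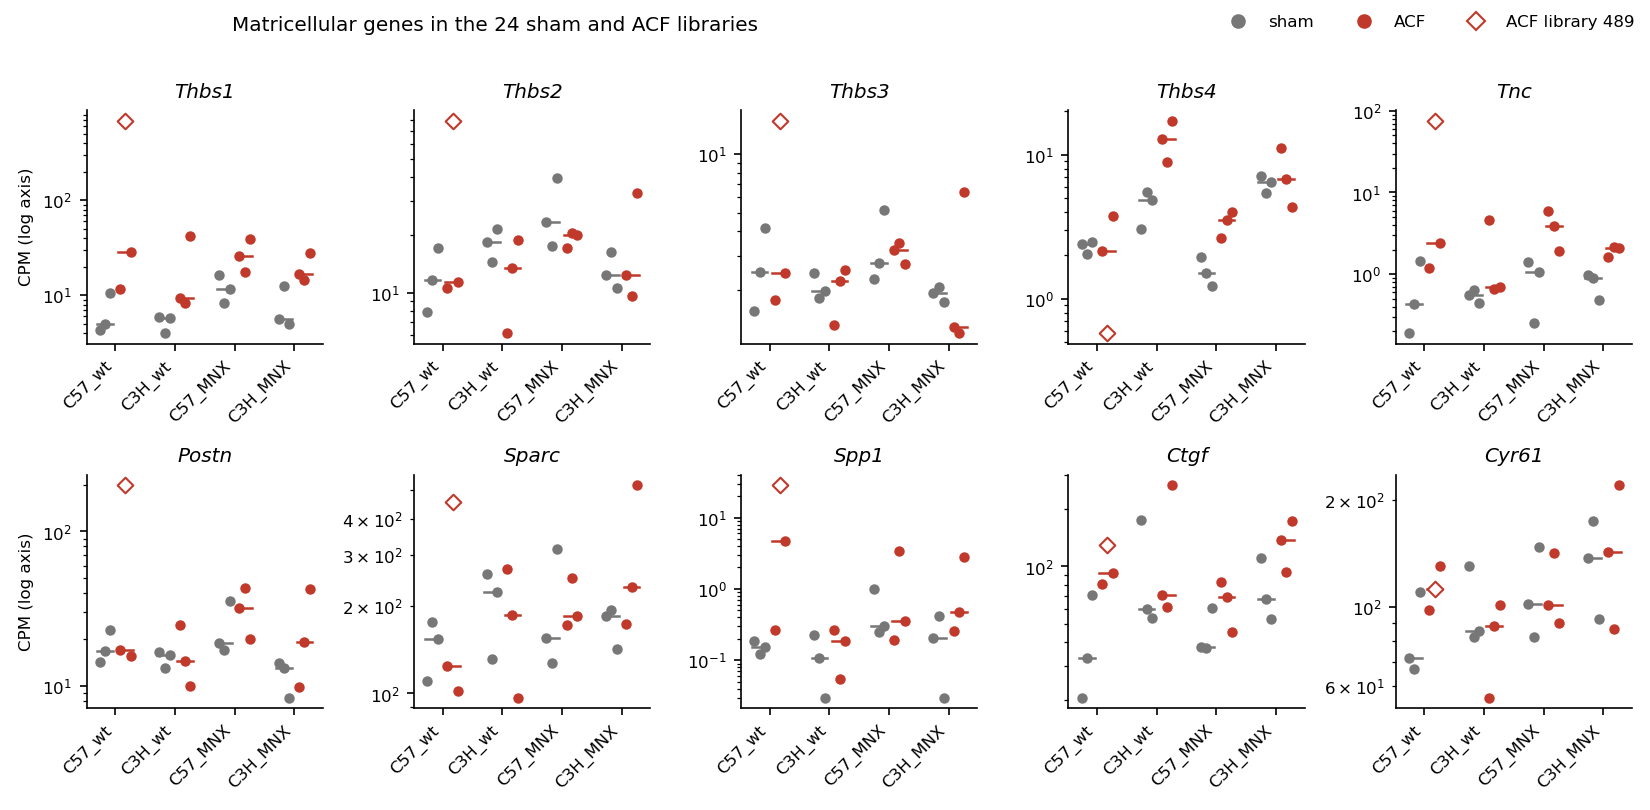
CPM of the 10 members in each of the 24 libraries of set A, on log axes, by title group; grey points are sham, red points ACF, the open diamond is ACF library 489 and bars are medians of 3 libraries. Spp1 values of 0 are drawn at the foot of its panel; Thbs1 is the member whose ACF points all lie above the sham points of their title group.

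Thbs1, the thrombospondin best known for activating latent TGF-beta and restraining vessel growth, was higher in ACF than in sham libraries of every title group. In C57_wt the sham libraries had 4.34, 5.03 and 10.7 CPM and the ACF libraries 11.6, 28.9 and 685 CPM, the last being library 489. In C3H_wt the values were 3.99, 5.81 and 5.96 CPM after sham and 8.2, 9.36 and 42 CPM after ACF. In C57_MNX they were 8.22, 11.7 and 16.3 CPM against 17.4, 25.9 and 39.3 CPM. In C3H_MNX they were 4.99, 5.64 and 12.4 CPM against 14.6, 16.6 and 28 CPM. So 12 of 12 ACF libraries lay above the highest sham library of their title group, a pattern that 0.0372% of the 13440 genes tested shared, and library 489 was more than an order of magnitude above any other. Averaged over the title groups, the log2 fold change was 2.42 (SE 0.5) with all libraries and 1.52 (SE 0.284) without library 489. Within C57_wt it fell from 5.2 to 1.61 when library 489 was left out, beside 1.92, 1.18 and 1.37 in C3H_wt, C57_MNX and C3H_MNX. The C3H_wt value fell to 0.75 when library 486, the one at 42 CPM, was left out.

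For the mean ACF effect, an adjusted threshold of 0.05 called 37 genes with all 24 libraries, or 0.275% of those tested, with 1 member among them, Thbs1. Without library 489 it called 0.923% of 13544 genes, with 3 of 10 members among them, Thbs1, Tnc and Thbs4. Of the 24 fits that each left out 1 library, 4 called Thbs1. The list was chosen on this contrast, so these counts are no evidence about the members. Leaving out 489 together with 6756 and 6693, the libraries with the next highest macrophage and platelet sums, gave 1.35 for Thbs1, 1.71 for Tnc and 0.84 for Thbs4.

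The vascular and matrix thrombospondins did not share the separation of Thbs1. Thbs2, which binds matrix metalloproteinases and is known from fibroblasts, had 78.9 CPM in library 489 and 6.13 to 39.7 CPM in the other set A libraries, and its sham and ACF libraries overlapped in all 4 title groups. Its mean log2 fold change was 0.24 (SE 0.311) with library 489 and -0.17 (SE 0.215) without it. Thbs3, a thrombospondin of the pentameric class, had 14.8 CPM in library 489 and 1.2 to 6.41 CPM elsewhere, with 0.42 (SE 0.34) and 0.02 (SE 0.256). Within C57_wt Thbs2 went from 1.46 to -0.16 and Thbs3 from 1.22 to -0.36 when library 489 was left out. For both genes the sign or size of the mean effect rested on 1 library, and libraries 489 and 6756 held the highest ACF values.

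Thbs4, the thrombospondin known from muscle and tendon and from the stress response of cardiomyocytes, went the other way in library 489. In C57_wt the sham libraries had 2.05, 2.39 and 2.46 CPM and the ACF libraries 0.575 (library 489), 2.16 and 3.75 CPM. In C3H_wt the sham libraries had 3.06, 4.85 and 5.5 CPM and the ACF libraries 8.91, 12.8 and 17.2 CPM. In C57_MNX the values were 1.22, 1.51 and 1.96 CPM against 2.62, 3.5 and 4.03 CPM, and in C3H_MNX 5.45, 6.43 and 7.15 CPM against 4.37, 6.82 and 11.1 CPM. The ACF and sham libraries were apart in C3H_wt and C57_MNX and overlapped in the other title groups. Non-overlapping higher ACF libraries were found for 12.6% of genes in C3H_wt and 4.78% in C57_MNX. Its mean log2 fold change was 0.7 (SE 0.212) with all libraries and 0.81 (SE 0.167) without library 489. Within C57_wt Thbs4 was at -0.08 with all libraries and at 0.37 without library 489. Within C3H_wt, whose libraries do not include 489, Thbs4 was at 1.54 (SE 0.406) with all libraries in the fit and at 1.53 (SE 0.297) without 489. With all 24 libraries, edgeR called 0 genes within C57_wt, C3H_wt and C57_MNX and 0.00744% within C3H_MNX, none of them a member. Without library 489 it called 0.00738% of genes within C57_wt and within C3H_MNX, 0 within C57_MNX and 0.509% within C3H_wt. The last included Thbs4, from which nothing is read since the list was chosen on this response. With all libraries, in C57_wt, C3H_wt and C57_MNX 2030, 951 and 274 genes respectively had an unadjusted p under 0.05, and DESeq2 called 175, 82 and 1.

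**Figure D2:**
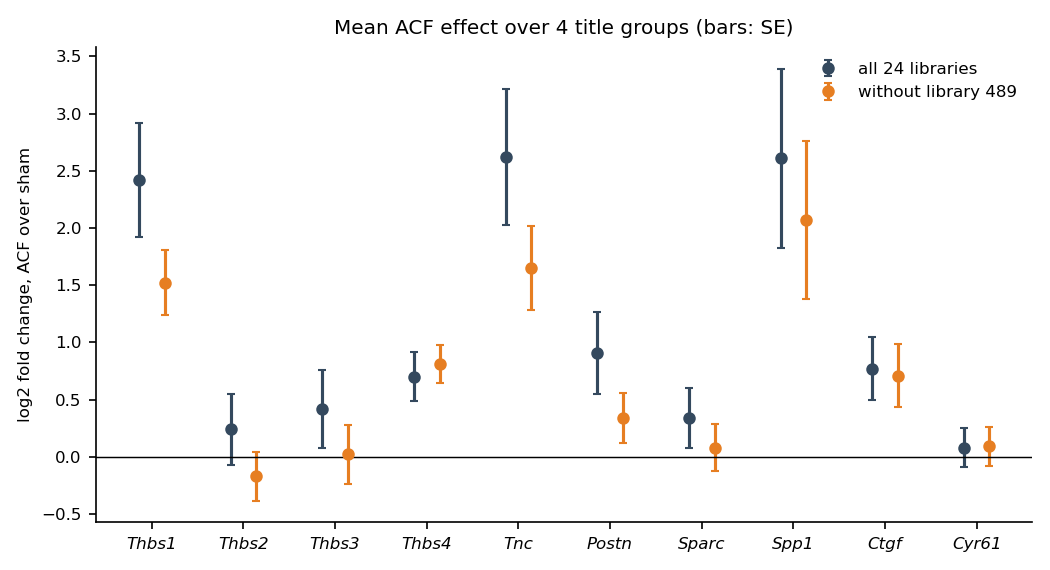
Mean log2 fold change of ACF over sham across the 4 title groups for each member, with bars of 1 SE; dark points use all 24 libraries of set A and orange points leave out library 489. Thbs1 falls from 2.42 to 1.52 and Tnc from 2.62 to 1.65 without library 489, while Thbs4, Ctgf and Cyr61 move little.

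Tnc, the hexameric glycoprotein that loosens cell attachment in remodelling tissue, was low in sham libraries. In C57_wt it had 0.189, 0.435 and 1.46 CPM after sham and 1.18, 2.39 and 75.3 CPM after ACF, the highest again in library 489. In C3H_wt the values were 0.447, 0.557 and 0.648 CPM against 0.652, 0.694 and 4.55 CPM, so that 2 of the 3 ACF libraries were barely above the sham libraries. In C57_MNX they were 0.252, 1.07 and 1.39 CPM against 1.93, 3.84 and 5.92 CPM. In C3H_MNX they were 0.481, 0.889 and 0.984 CPM against 1.6, 2.11 and 2.15 CPM. In all, 11 of 12 ACF libraries exceeded the highest sham library of their title group, a level of separation reached by 0.149% of genes, and only C57_wt overlapped. Within C3H_MNX alone, 4.94% of genes had all ACF libraries above all sham libraries. Over the title groups Tnc had a mean log2 fold change of 2.62 (SE 0.596) with all libraries and 1.65 (SE 0.364) without library 489. Within C57_wt it fell from 5.29 to 1.42 when library 489 was left out. Counts ran from 3 to 1048 per library in set A, so single sham values rest on few reads.

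Postn, the fibroblast matrix protein periostin that cross-links collagen, had 199 CPM in library 489 and 8.42 to 43 CPM in the other libraries of set A. Its sham and ACF libraries overlapped in every title group. Its mean effect went from 0.91 (SE 0.357) to 0.34 (SE 0.216) without library 489, and within C57_wt from 2.1 to -0.15. In C3H_MNX it was 1.02, with ACF libraries at 9.83, 19.4 and 42.2 CPM, the highest being library 6756. Without that library the C3H_MNX value was 0.3.

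Sparc, a collagen-binding protein that aids fibril assembly, had 458 CPM in library 489 and 521 CPM in library 6756, against 96.8 to 314 CPM in the other libraries. The mean log2 fold change was 0.34 (SE 0.262) with all libraries and 0.08 (SE 0.206) without library 489, and no title group was separated. Within C57_wt Sparc went from 0.64 to -0.38 without library 489. Spp1, the cytokine-like phosphoprotein osteopontin known from macrophages, was at 0 counts in 2 sham libraries. In C57_wt its sham libraries had 0.124, 0.154 and 0.189 CPM and its ACF libraries 0.262, 4.71 and 28.4 CPM, the highest being library 489. Elsewhere it passed 1 CPM in 2 ACF libraries, with 3.43 CPM in library 6692 of C57_MNX and 2.84 CPM in library 6756 of C3H_MNX. All C3H_wt libraries were at or below 0.264 CPM. A count of 3 corresponded to 0.155 to 0.291 CPM in set A, so most Spp1 values were near the limit of counting. For Spp1 the mean log2 fold change was 2.61 (SE 0.784) with library 489 and 2.07 (SE 0.694) without it. Within C57_wt Spp1 went from 6.09 to 3.95.

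Of the CCN proteins, which carry signals through integrins and are classical targets of YAP and of TGF-beta, Ctgf (CCN2) had the larger ACF values. In C57_wt it had 20.6, 33.3 and 70.9 CPM after sham and 80.6, 92.9 and 130 CPM after ACF, without overlap, which 4.52% of genes showed in the same direction. In C3H_wt it had 54, 59.6 and 176 CPM against 61.2, 70.6 and 266 CPM. In C57_MNX it had 37.4, 37.8 and 60.5 CPM against 45.3, 69.5 and 82.6 CPM, and in C3H_MNX 53.2, 67.2 and 111 CPM against 93.1, 137 and 172 CPM. The last 3 title groups overlapped. The mean log2 fold change was 0.77 (SE 0.276) with all libraries and 0.71 (SE 0.273) without library 489. Within C57_wt Ctgf was at 1.28 with all libraries and at 1.06 without library 489. Cyr61 (CCN1), the immediate early member of the family, had 112 CPM in library 489 and 55.5 to 220 CPM elsewhere in set A. Its mean effect was 0.08 (SE 0.17) with library 489 and 0.09 (SE 0.169) without it. Within C57_wt Cyr61 was at 0.45 with library 489 and at 0.46 without it. Both CCN genes therefore kept nearly the same mean effect with and without that library.

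The marker sums and the members' ACF values moved together in part. Over all libraries 11 of 12 fibroblast markers and 11 of 11 macrophage markers had a mean ACF log2 fold change above 0, with medians of 0.17 and 0.46. Without library 489 these were 5 of 12 and 6 of 11, with medians of -0.06 and 0.08. None passed the threshold in either fit. Without library 489 the medians were 0.34 over 7 neutrophil markers, 5 of them above 0, and 0.66 over the 2 platelet markers tested. Of the immediate early genes 17 of 17 were above 0 in both fits, with medians of 0.63 and 0.44. The median over the 10 members was 0.73 with all libraries and 0.53 without library 489, against 0 for all genes in both fits. In library 6756 the fibroblast sum was 2220 CPM and the macrophage sum 241 CPM, and in library 6693 the platelet sum was 70.4 CPM and the neutrophil sum 93.8 CPM. The part of these cells in the members' values was not tested. In such libraries fewer cells of a type and less RNA per cell cannot be told apart.

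The difference in ACF response between C3H titles and C57 titles did not pass the threshold for any member, with or without library 489. edgeR called 0 genes with all libraries and 0.00738% of genes without library 489. With it the differences ran from -2.28 (SE 1.61) for Spp1 to 0.37 (SE 0.426) for Thbs4. Without it they ran from -1.24 (SE 1.43) for Spp1 to 0.52 for Thbs3 (SE 0.513) and Sparc (SE 0.414), and Thbs1 was at 0.24 (SE 0.566). The SE over the 10 members ran from 0.338 to 1.43 without library 489, so that differences of moderate size were not detectable for most of them.

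Baseline levels were compared in set B, which had no ACF arm. Thbs4 was higher with the C3H nucleus than with the C57 nucleus whichever mitochondria were present. In C57_WT it had a lowest, median and highest value of 0.773, 1.02 and 1.41 CPM, and in C57n-C3Hmt of 0.839, 1.16 and 1.45 CPM. In C3H_WT these were 2.75, 3.36 and 4.12 CPM, and in C3Hn-C57mt 4.51, 5.06 and 5.67 CPM. All 12 libraries with a C3H nucleus were above all 12 with a C57 nucleus, which 3.37% of genes showed in this direction. C3H over C57 gave a mean log2 fold change of 1.93 (SE 0.104; edgeR quasi-likelihood test, adjusted p = 3.86e-14), and it stayed between 1.89 and 1.98 when any 1 library was left out. It was 2.27 (SE 0.147; edgeR adjusted p = 3.56e-12) with C57 mitochondria and 1.59 (SE 0.149; edgeR adjusted p = 5.37e-09) with C3H mitochondria.

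**Figure D3:**
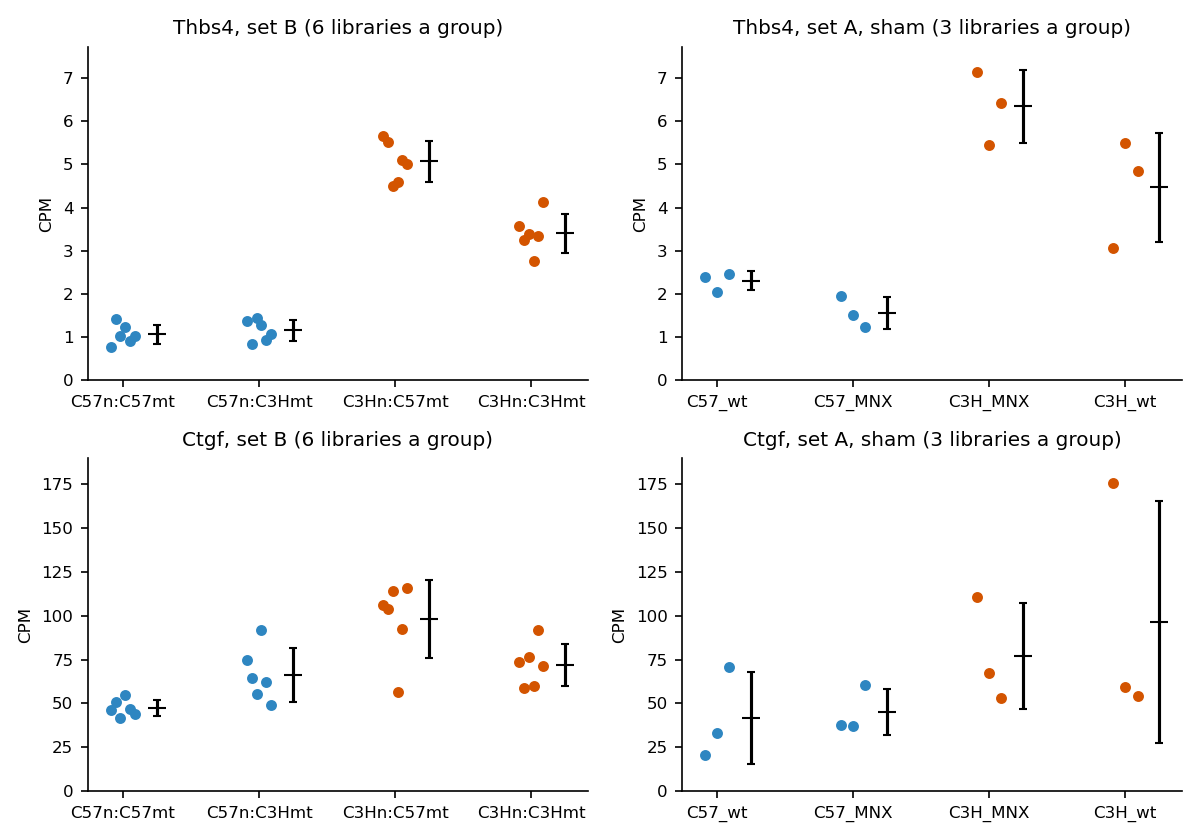
CPM of Thbs4 and Ctgf in the libraries of set B, 6 per group, and in the sham libraries of set A, 3 per group; blue is the C57 and orange the C3H nucleus (set A: start of the title), and the bars are mean and SD. The Thbs4 points of the C3H groups all lie above those of the C57 groups in both sets; those of Ctgf overlap in part.

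In the sham libraries of set A, which are the reference of the ACF response, Thbs4 was also higher with C3H titles. The 6 sham libraries with C3H titles had 3.06 to 7.15 CPM and the 6 with C57 titles 1.22 to 2.46 CPM, without overlap, which 5.33% of genes showed in this direction. The log2 difference was 1.47 (SE 0.307; edgeR adjusted p = 0.00306). Between the MNX titles it was 1.99 (SE 0.445; edgeR adjusted p = 0.00983), where 4.43% of genes were called. Between the wt titles it was 0.94 (SE 0.425; edgeR adjusted p = 0.389), where 3.76% were called. Over both, Thbs4 was the sole member of 10 called, against 8.39% of genes in all and 4.46% called higher.

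In set B 2 of 9 members tested passed the threshold for the mean nuclear effect, Thbs4 and Ctgf, both higher with the C3H nucleus. The background was high, with 35.7% of the 13395 genes called and 18.9% called higher. The share of members called in either direction was not above that of all genes, and nothing is read from the share called higher. Spp1 was filtered out, with 0 to 5 counts per library of set B. Titles of both sets also carry a code of L and a digit, whose meaning the labels do not give. In set B all C57_WT libraries had L8 and all C3H_WT libraries L3, and L2 held 4 libraries of each exchanged group. The groups of the nuclear comparison with C57 mitochondria shared no code, nor did those with C3H mitochondria. Between those groups alone, nucleus and code cannot be told apart. Within L2 Thbs4 had 0.839 to 1.45 CPM in C57n-C3Hmt and 4.51 to 5.67 CPM in C3Hn-C57mt, again apart. Ctgf had 49.3 to 74.6 CPM and 56.4 to 114 CPM in the same libraries and overlapped. These groups differ in both nucleus and mitochondria. In set A all C3H_MNX ACF libraries had L8, a code that their sham libraries did not all share.

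Ctgf had 41.8, 46.5 and 54.7 CPM (lowest, median, highest) in C57_WT, 49.3, 63.4 and 92 CPM in C57n-C3Hmt, 58.9, 72.5 and 91.9 CPM in C3H_WT, and 56.4, 105 and 116 CPM in C3Hn-C57mt. C57_WT was below the other groups save for an overlap with C57n-C3Hmt, and C57n-C3Hmt and C3H_WT could not be ordered. The mean nuclear log2 fold change was 0.6 (SE 0.109; edgeR adjusted p = 7.83e-05). With C57 mitochondria it was 1.06 (SE 0.154; edgeR adjusted p = 7.26e-06), without overlap of the 6 and 6 libraries, a separation found for 8.06% of genes. With C3H mitochondria it was 0.15 (SE 0.153; edgeR adjusted p = 0.572). The difference between these effects was -0.91 (SE 0.217) and did not pass (edgeR adjusted p = 0.0841). In the sham libraries of set A Ctgf was at 0.96 (SE 0.392; edgeR adjusted p = 0.165) for C3H over C57 titles.

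With C57 mitochondria 3 of 9 members passed for the nuclear comparison against 31.9% of genes (15.9% called higher and 16% lower), and with C3H mitochondria 2 of 9 against 19.4% (10.6% called higher). Tnc was the third with C57 mitochondria and the sole member called lower. Thbs3, Postn, Thbs2 and Sparc were also below 0 there, at -0.62, -0.6, -0.5 and -0.15, and did not pass. Tnc had 0.464 ± 0.118 CPM (SD, n = 6) in C57_WT and 0.234 ± 0.184 CPM (SD, n = 6) in C3Hn-C57mt. On the log2 scale its difference was -0.96 (SE 0.361; edgeR adjusted p = 0.0446). These groups overlapped, counts were 3 to 21 per library, and the call was lost when library 1, 3, 4, 6, 8, 13, 14, 15, 17, 18 or 24 was left out. It was also lost with the L code as a covariate (edgeR adjusted p = 0.451) and with no filter on low counts (edgeR adjusted p = 0.0574). In the same comparison 10 of 11 macrophage markers passed as lower (median -1.02), as did 3 of 10 endothelial markers (median -0.57) and 4 of 12 fibroblast markers, while 3 of 10 cardiomyocyte markers passed as higher. Their part in the Tnc difference was not tested. Sparc was the second called with C3H mitochondria, at 0.79 (SE 0.191; edgeR adjusted p = 0.00354), with 105 ± 28.3 CPM in C57n-C3Hmt and 178 ± 47.3 CPM in C3H_WT (SD, n = 6 each). With C57 mitochondria Sparc was at -0.15 (edgeR adjusted p = 0.592), with 151 ± 34.7 CPM in C57_WT and 136 ± 30 CPM in C3Hn-C57mt (SD, n = 6 each). Its mean nuclear effect was 0.32 (SE 0.135; edgeR adjusted p = 0.0655), and it passed without library 1, 8, 18, 19 or 22.

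Fibroblast markers moved in the same comparisons as Sparc. With C3H mitochondria 12 of 12 had a log2 fold change above 0 for C3H over C57 nucleus, 5 passed and the median was 0.74. With C57 mitochondria 2 of 12 were above 0 and the median was -0.48. Summed fibroblast markers ran from 417 to 874 CPM in C57_WT, 324 to 553 in C57n-C3Hmt, 375 to 1210 in C3H_WT and 274 to 530 in C3Hn-C57mt, with no marker at 0. Their part in the Sparc difference was not tested. The remaining members gave mean nuclear effects of 0.29 for Thbs1, 0.07 for Cyr61, -0.05 for Thbs2, -0.16 for Thbs3, -0.17 for Tnc and -0.21 for Postn, none of them past the threshold. With the L code as a covariate Thbs1 was at 1.49 and Sparc at 0.99, and both passed (edgeR adjusted p = 0.0499 and 0.0184). Postn passed as lower with both sets in 1 fit, at -0.38 (edgeR adjusted p = 0.0403). It also passed without library 23, at -0.36 (edgeR adjusted p = 0.0495).

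**Figure D4:**
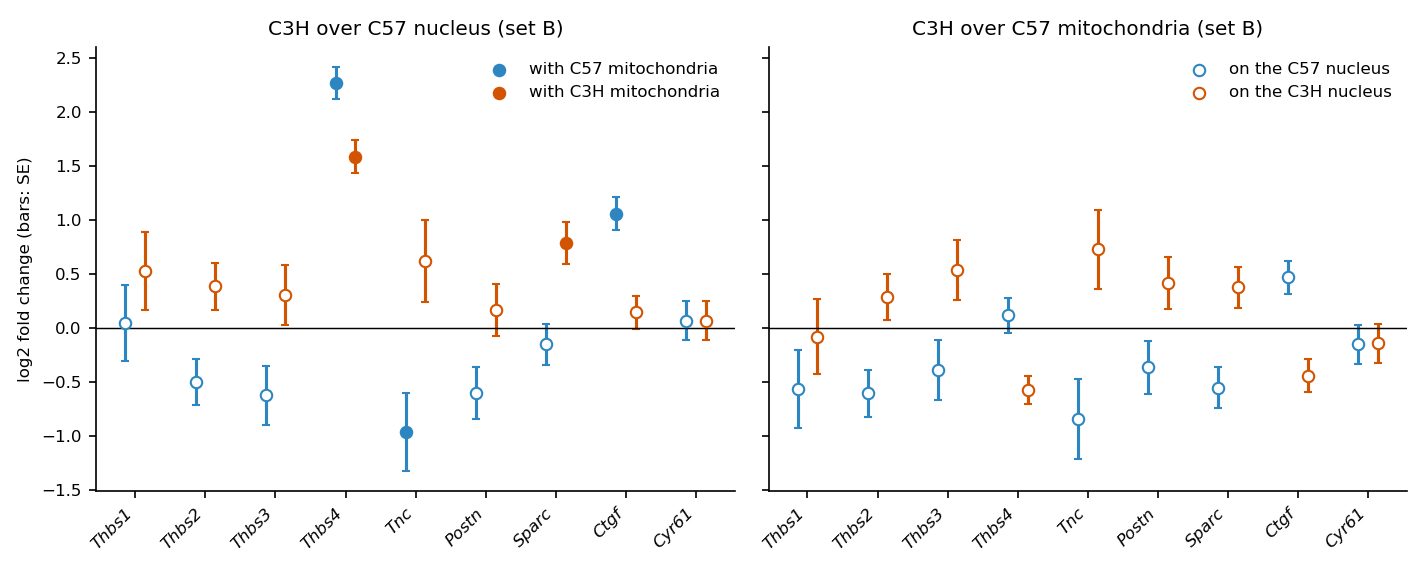
Log2 fold changes of C3H over C57 nucleus (left, by mitochondria) and of C3H over C57 mitochondria (right, by nucleus) in set B for the 9 members tested, with bars of 1 SE; filled points passed the adjusted threshold of 0.05. Filled points are Thbs4, Ctgf, Tnc and Sparc on the left and none on the right, where no member passed.

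With edgeR no member passed the threshold for the source of the mitochondria in set B, while DESeq2 called Thbs4 on the C3H nucleus. Over both nuclei the log2 fold changes of C3H over C57 mitochondria ran from -0.32 for Thbs1 to 0.08 for Thbs3. edgeR called 0 of 13395 genes, 549 had an unadjusted p under 0.05 and DESeq2 called 1. On the C57 nucleus edgeR called 0 genes as well, with 1509 at an unadjusted p under 0.05 and 15 called by DESeq2, and the members ran from -0.84 (SE 0.373) for Tnc to 0.47 (SE 0.154) for Ctgf. On the C3H nucleus edgeR called 0.00747% of genes, and DESeq2 called 7 genes, Thbs4 among them.

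Among the members only Thbs4 had libraries that did not overlap between the sources of mitochondria, and only on the C3H nucleus. Its 6 C3H_WT libraries all lay below its 6 C3Hn-C57mt libraries, as 0.224% of genes did, at -0.57 (SE 0.132), yet it did not pass after adjustment over all genes (edgeR adjusted p = 0.344). With DESeq2 it was at -0.58 and passed (adjusted p = 0.0164). Between the libraries of code L3 alone the value was -0.56 (edgeR adjusted p = 0.204), with 5.02 and 5.1 CPM in the 2 C3Hn-C57mt libraries and 2.75 to 4.12 CPM in C3H_WT. On the C57 nucleus Thbs4 was at 0.12 (SE 0.162; edgeR adjusted p = 0.811). In sham libraries of set A Thbs4 had 3.06, 4.85 and 5.5 CPM in C3H_wt and 5.45, 6.43 and 7.15 CPM in C3H_MNX.

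No member passed for the interaction of nucleus and mitochondria with edgeR, which called 0 genes, while 2188 had an unadjusted p under 0.05 and DESeq2 called 331. The values were 1.57 (SE 0.524) for Tnc, 0.93 (SE 0.269) for Sparc, 0.88 (SE 0.305) for Thbs2, -0.69 (SE 0.209) for Thbs4 and -0.91 (SE 0.217) for Ctgf. DESeq2 called Ctgf, Sparc and Thbs4, with adjusted p of 0.0132, 0.0423 and 0.0492. Without library 5 of C57_WT edgeR called Ctgf and Sparc. Over the 24 fits that each left out 1 library, edgeR called from 0 to 422 of all genes for the interaction. The direction of Ctgf and Thbs4 was opposite to that of Tnc, Sparc and Thbs2, and the same side as the latter was taken by 12 of 12 fibroblast markers (median 1.14), 10 of 10 endothelial markers (median 0.69) and 11 of 11 macrophage markers (median 1.33). None of these markers passed either, and their part was not tested.

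Related genes were counted from lists of the same pathways. Of 26 other matricellular genes 19 were tested in set B, where 0 passed as higher and 6 as lower with the C3H nucleus. In this comparison 35.7% of all genes were called and 18.9% were called higher. Counted in either direction, the number called was not above the background. The same holds for the nuclear counts of the receptor, TGF-beta, YAP and SRF, and immediate early gene lists that follow. As lower calls alone, the 6 were above the share of all genes called lower. Nothing is read from this, as the lists were chosen with earlier results of these data known. The lower genes included the testican Spock2 at -1.31, the fibulin Fbln1 at -1.09, the TGF-beta-induced adhesion protein Tgfbi at -0.76 and the CCN relative Wisp2 at -0.71. Of 11 macrophage markers 5 passed as lower and 1 as higher in the same comparison, with a median of -0.36. Counted in either direction, these marker calls were above the share of all genes called. The part of macrophages in these lists was not tested. The list's median was -0.25, against 0.07 for the members and 0.01 for all genes. In set A the sham comparison called Spock2 alone of this list, at -1.51, and none as higher, where 8.39% of all genes were called. In the ACF comparison none of the 19 passed, with a median of 0.58 over all libraries and 0.13 without library 489.

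Among 18 receptors and activating partners tested in set B, Cd47, the cell surface receptor of thrombospondin 1, was higher with the C3H nucleus at 0.63. The hyaluronan and osteopontin receptor Cd44 was lower at -0.82 and the integrin subunit Itgb5 lower at -0.2. In sham libraries of set A Cd47 was called again, at 0.62, as the sole receptor, where 8.39% of all genes were called and 4.46% called higher. For the mean ACF effect none of 19 was called with all libraries. Cd44 was called without library 489, at 0.68, where 0.923% of all genes were called. Within C3H_wt the integrin subunit Itga8 was called lower without library 489, at -1.96, where 0.509% of all genes were called. Of 17 TGF-beta pathway genes 2 were higher with the C3H nucleus, Smad3 at 0.29 and Smad4 at 0.19, and 3 were lower, Tgfbr2 at -0.42, Tgfbr3 at -0.38 and Ltbp1 at -0.38. For ACF 0 of 17 passed in either fit.

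Of 15 tested genes of the YAP and SRF pathway 3 were higher with the C3H nucleus and 0 lower, beside 18.9% of all genes called higher. These were Ankrd1, the stretch-responsive cardiac ankyrin repeat protein, at 1.31, Yap1 at 0.28 and Srf at 0.23. Ankrd1 was also called in the sham libraries of set A, at 1.42, where 8.39% of all genes were called and 4.46% called higher. For ACF 0 of 15 passed. Of 17 immediate early genes 3 were higher and 1 lower with the C3H nucleus. For the mean ACF effect Maff passed at 1 over all libraries, where 0.275% of all genes were called. Without library 489 Maff and Fosl2 passed, at 0.87 and 0.45, where 0.923% were called. The lists were chosen with earlier results of these data known, so nothing is read from these ACF calls. In the mitochondrial comparisons 0 genes of any of these lists passed.

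The genes whose log2 CPM followed each member most closely over the 24 libraries of set B, as deviations from group means, differed by member. These are correlations between genes in shared libraries and are given as a description. Sparc was followed by Igfbp7 (Pearson r = 0.96), Tpm4 (0.95) and Fmnl3 (0.95), Thbs3 by genes that included Rcn3 (0.89) and Ecm1 (0.87), and Postn by Kctd12 (0.87), Col8a1 (0.86) and Pla1a (0.86). Thbs1 was followed by Errfi1 (0.86), the elastin gene Eln (0.86) and the immediate early gene Egr1 (0.85), and Thbs2 by Atl3 (0.87), Spon1 (0.86) and Scn7a (0.84). Cyr61 was followed by Atf3 (0.78), Btg2 (0.74) and Thbs1 (0.7), and Ctgf by Shb (0.76), Cd63 (0.66) and Ppp1r15a (0.59). Tnc reached 0.68 with Emp1. Thbs4 had no close follower: its highest values were 0.52 with Pspc1 and Stx7 and 0.51 with Polr3d, and it was at 0.09 with Thbs1, 0.12 with Thbs2 and -0.02 with Thbs3.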

How the data were processed

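RNA was measured in 48 libraries, 24 in each set, and samples were grouped by title. The authors deposited RSEM expected counts per gene symbol that were not normalized, with 13.9% of values not whole. Per the submitters' processing notes, CASAVA 1.8.2, Bowtie and RSEM 1.2.0 were used with build mm9, while the labels' protocols describe a provider's own mapping algorithm and DESeq2 1.10.1. The step that produced the table is not given in the sources used here. RSEM divides reads shared by similar genes, which can affect near-identical copies.

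Counts were rounded and analysed in R 4.3.3 with edgeR 4.0.16 (limma 3.58.1): TMM scaling, filtering of low counts by group, the quasi-likelihood F test, and Benjamini-Hochberg adjustment over all genes tested with a threshold of 0.05. Set A (13440 genes, 13544 without library 489) and set B (13395) were each fitted as 1 model of group means. Each SE was taken as the absolute log2 fold change over the root of its F statistic. Log2 CPM used a prior count of 2. The members, gene lists and marker lists were chosen with earlier results of these data known. All members are named; of other lists the called genes with the largest changes, up to 4 per direction, and for likeness the 3 genes with the highest correlation and a mean log2 CPM of at least 2, of which 1 is not reported here. On simulated counts for the mean ACF effect, 50.8% of genes changed 1.5-fold and 77.9% of those changed 2-fold were called. The changed genes were drawn at random and no simulated library was made to stand apart as 489 did. These rates therefore do not hold for members with a wide spread, such as Thbs1, Tnc and Spp1 (SE 0.5, 0.596 and 0.784). Between any pair of libraries of a group, chi-square per degree of freedom was at least 3.858, so none was treated as a repeat. Alternatives were DESeq2 1.42.0, its size factors, no filter, each library left out, the L code as a covariate or within 1 code, title groups fitted alone, both sets together, and, added after seeing the data, libraries 489, 6756 and 6693 left out.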

Additional observations from a re-analysis of the deposited data

Results flagged for a closer look

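Over 40 combinations of a member and a group of 6 libraries in set B, 3 values lay far from the other 5 of their group, by a gap that chance gives in about 1 in 20 groups. Thbs2 was lowest in library 10 of C57n-C3Hmt, at 3.38 CPM with the next at 5.48 CPM. Spp1 was at 0 CPM in library 11 of C57n-C3Hmt, with the next at 0.0761 CPM, all of them near the limit of counting. Ctgf was lowest in library 16 of C3Hn-C57mt, at 56.4 CPM with the next at 92.5 CPM.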

How the results depend on the processing

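No paired analysis was possible because each replicate number names 1 library and the groups share none. Of 1117 alternative values of the tested baseline effects of members, ACF effects not included, 1077 kept their direction and their side of the threshold, 13 lost the call, all for Tnc with C57 mitochondria, 15 gained it and 12 changed sign. The cause of each change below was not tested.

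Counts of called members in the ACF response are descriptions. For the mean ACF effect 1 member was called, against 3 with DESeq2, 0 with the L code as a covariate, 3 without libraries 489 and 6756, 3 without 489, 6756 and 6693, and 0 to 3 with each library left out in turn. Within C57_wt 0 members were called, against 3 with DESeq2 and 0 to 4 with a library left out, the 4 when 465 or 490 was. Both of those fits kept library 489 and had fewer ACF libraries of C57_wt beside it. Over all genes, 175 were called within C57_wt with DESeq2 and 0 to 874 with a library left out. Within C3H_wt 0 were called, against 1 with DESeq2, 1 without 489 and 6756, 1 without 489, 6756 and 6693, and 0 to 1 with a library left out. The L code as a covariate also moved ACF values in both directions. Within C57_wt Thbs1 went from 5.2 to 3.27 and Tnc from 5.29 to 2.7. Within C3H_wt Thbs4 went from 1.54 to 0.95 and Tnc from 1.8 to 3.92. For the nuclear effect 2 members were called over both mitochondria, against 4 with the L code as a covariate and 2 to 3 with a library left out. With C57 mitochondria 3 were called, against 2 to 5 with a library left out, the 5 when library 5 or 23 was. DESeq2 called 1 member for mitochondria on the C3H nucleus and 3 for the interaction, against 0 with edgeR, and leaving out a library gave 0 to 2 for the interaction. Over all genes DESeq2 called 7 and 331 in these comparisons, and leaving out a library gave 0 to 422 for the interaction.

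With the L code as a covariate the nuclear effect changed sign for Thbs2 (0.23), Tnc (0.2) and Postn (0.13) over both mitochondria, for Sparc with C57 mitochondria (0.56) and between sham titles of set A (-0.35), and the mitochondrial effect did for Thbs1 (0.4). With both sets in 1 fit, Thbs1 was at -0.01 for the nuclear effect. With a library left out, Thbs2 ran from -0.13 to 0.02 for the nuclear effect, and Thbs3 from -0.11 to 0.14 and Ctgf from -0.05 to 0.05 for the mitochondrial effect; none of these passed.

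Counts over all genes also moved. The mean ACF effect had 37 calls, against 244 with DESeq2, 344 without 489 and 6756 and 323 without 489, 6756 and 6693, and 12 to 174 with a library left out. Within C3H_wt the counts were 0, 82, 192 and 162 in the same order of settings. With the L code as a covariate the nuclear effect had 1399 calls in place of 4776 over both mitochondria, 1075 in place of 4272 with C57 mitochondria and 1191 in place of 2599 with C3H mitochondria. The sham titles of set A had 1128 calls, against 2446 without 489 and 6756. Single counts set the limit for Spp1 and for Tnc in set B.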

Other observations

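The sham libraries of set A and those of set B differed in level for several members, and set and any difference in handling cannot be told apart. Cyr61 had 66.9 to 175 CPM in the sham libraries of set A and 149 to 355 CPM in set B. Thbs2 had 7.93 to 39.7 CPM in the sham libraries of set A and 3.38 to 13.2 CPM in set B. The spread between libraries of a group was also wider in set A for each of the 10 members. The pooled SD of log2 CPM was 1.28 against 0.668 for Thbs1, 1.41 against 0.49 for Tnc, 0.589 against 0.234 for Thbs4 and 0.434 against 0.342 for Cyr61, with library 489 included in set A.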
